A study of Mus musculus with 6 samples.

Results

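The genes described here are 7 molecular chaperones of mouse sensory neurons: the small heat shock proteins Hspb1, Hspb8 and Cryab, the HSP70-family protein Hspa8 with its partners Hsph1 and Dnajb1, and the HSP90 protein Hsp90aa1. They were chosen by gene name, as 7 of the 17022 gene names in the expression table, and they hold 28 of its 60744 isoforms. RNA was taken from neurons that had been laser-microdissected from dorsal root ganglia, which hold the cell bodies of sensory neurons beside the spinal cord. The ganglia were those of lumbar levels 3, 4 and 5 on the operated side; the mice were C57Bl/6 males that the labels give as adult, with an age of 4 to 6 weeks. In the crush group the sciatic nerve had been crushed for 10 seconds, and in the sham group it had only been exposed for 10 seconds; tissue was taken 7 days later in both. Each group had 3 polyadenylated-RNA libraries, crush 1 to 3 and sham 1 to 3. The labels do not say whether different libraries were made from different animals, and the p-values therefore rest on the spread between libraries alone, which may be technical. The labels do not tell which cells projected into the sciatic nerve.

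Chaperones bind proteins that are unfolded or only partly folded. Small heat shock proteins hold them without using ATP; HSP70 proteins fold them in an ATP-driven cycle that J-domain proteins such as Dnajb1 start and that HSP110 proteins such as Hsph1 restart by exchanging the nucleotide; HSP90 acts late, on kinases, steroid receptors and other client proteins. The heat shock factor Hsf1 switches on many of these genes by binding inverted repeats of the bases GAA. HSPB1 is known in rats to rise in sensory and motor neurons after axon injury, and variants of human HSPB1 and HSPB8 cause inherited neuropathies of motor and sensory axons.

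None of the 7 genes passed the test of crush against sham at 7 days, and in each the libraries of the groups overlapped. The ratio of the crush mean to the sham mean ran from 0.878 for Hspb1 to 1.10 for Hsp90aa1. Hspb1 varied most between libraries, and in sham 2 it stood at 2.87 times the mean of the other sham libraries. Atf3, a transcription factor of injured neurons that served as the check of the labels, was higher in crush, at 166, 153 and 196 FPKM in crush 1 to 3 and 50.9, 64.6 and 36.1 FPKM in sham 1 to 3 (log2 change 1.77, limma adjusted p = 0.0106; 1.97 and 0.00223 without sham 2). FPKM is fragments scaled by the authors for the length of the transcript and the total of mapped fragments; the counts behind it are not kept, and the depth was unknown. Sham 2 stood apart: over 12289 genes it correlated with sham 1 and sham 3 at r = 0.978 and 0.981, whereas sham 1 and sham 3 correlated at 0.996 and the crush libraries with each other at 0.993 to 0.996, across genes, which are not independent. The gene-level tests, and the isoform and marker counts, are therefore also given without sham 2.

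The RefSeq promoter table, in build GRCm38.p6, covered 4 of the 7 genes with windows from 250 bases before to 50 bases after the start site. They were searched for GAANNTTC and TTCNNGAA, each a single inverted pair of the GAA units that make up heat shock factor sites. Each motif reads the same on both strands, and 2 matches may overlap. Of the 4 genes, Hspb1, Hspb8 and Hsph1 held a match and Dnajb1 held none in either of its 2 windows, while 17.0% of the 27025 genes in the table and 15.1% of its 32851 windows held one, as did 20 of the 67 other chaperone genes found there. Stretches of the windows that hold matches are shown, and whether they act in these neurons was not tested. Capitals mark the matches, positions count from the start site, and every sequence runs 5′ to 3′ on the strand of its gene.
Hspb1, chr5:135887769-135887868, plus strand, from -150 to -51: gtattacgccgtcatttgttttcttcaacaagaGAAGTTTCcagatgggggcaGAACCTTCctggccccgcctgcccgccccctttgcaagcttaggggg
Hspb8, chr5:116422853-116422882, minus strand, from -18 to 12: tcccagcccagaagccaggaGAAGTTTCta
Hsph1, chr5:149636337-149636436, minus strand, from -100 to -1: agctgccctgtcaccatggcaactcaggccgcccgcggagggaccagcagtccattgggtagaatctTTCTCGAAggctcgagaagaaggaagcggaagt
Hspb1 thus held GAAGTTTC from -117 to -110 and GAACCTTC from -97 to -90, and Hspb8 held the same GAAGTTTC just after its start site, from 3 to 10. Hsph1 has 2 windows in the table with different start sites; counted from the one used here, it held TTCTCGAA from -33 to -26 and a further pair of overlapping matches after the start, TTCTGGAA from 37 to 44 and GAAAGTTC from 42 to 49. Counted from the other, the same matches lie from -54 to -47, 16 to 23 and 21 to 28. A match is a run of letters, not a site shown to be bound. The windows were not placed against the first exons of the isoforms measured here. Most of the Hspb8 and Hsph1 FPKM was in isoforms that start downstream of the reference isoform. In build mm9, Hspb8_j2 and Hspb8_j3 start at 116865869 and 116866060, and the Hspb8 reference isoform at 116873889. Hsph1_j1, with 60.4% to 71.6% of Hsph1, starts at 150434936, and the longer Hsph1 reference isoform at 150440025.

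FPKM is scaled for length, so the summed levels are set side by side here. Sums that rest on short assembled isoforms are less comparable between genes. Hsp90aa1 had the highest sum, with a mean over the 6 libraries of 401 ± 30.4 FPKM (SD), at the 99.4th percentile of the genes tested. Its lowest library (369 FPKM) lay above the highest of the next gene. Between 68.4% and 72.9% of this sum was Hsp90aa1_j7, an assembled piece of 943 bases, so the rank rests largely on that piece. Hspb8 followed at 259 ± 22.3 FPKM (98.8th percentile) and Hspa8 at 236 ± 7.83 FPKM (98.6th percentile), with library ranges of 244 to 302 and 226 to 249 FPKM that overlapped. Hsph1 at 64.4 ± 4.18, Cryab at 62.4 ± 8.09, Hspb1 at 44.0 ± 22.1 and Dnajb1 at 26.5 ± 3.74 FPKM came next, and in that order each overlapped the gene after it. By these sums the small heat shock protein Hspb8 was as abundant as the constitutive chaperone Hspa8, within the spread of the libraries. The isoforms behind the 2 sums differ in kind. Of the Hspb8 sum, 157 to 198 FPKM was the assembled Hspb8_j2 and Hspb8_j3 together, and its reference isoform held 0.0824% to 0.198%. A reference isoform of 3470 bases held 93.4% to 99.3% of Hspa8. The spread itself differed between genes: the SD was 3.32% of the mean for Hspa8, 50.3% for Hspb1, and between 6.48% and 14.1% for the other 5.

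**Figure D1:**
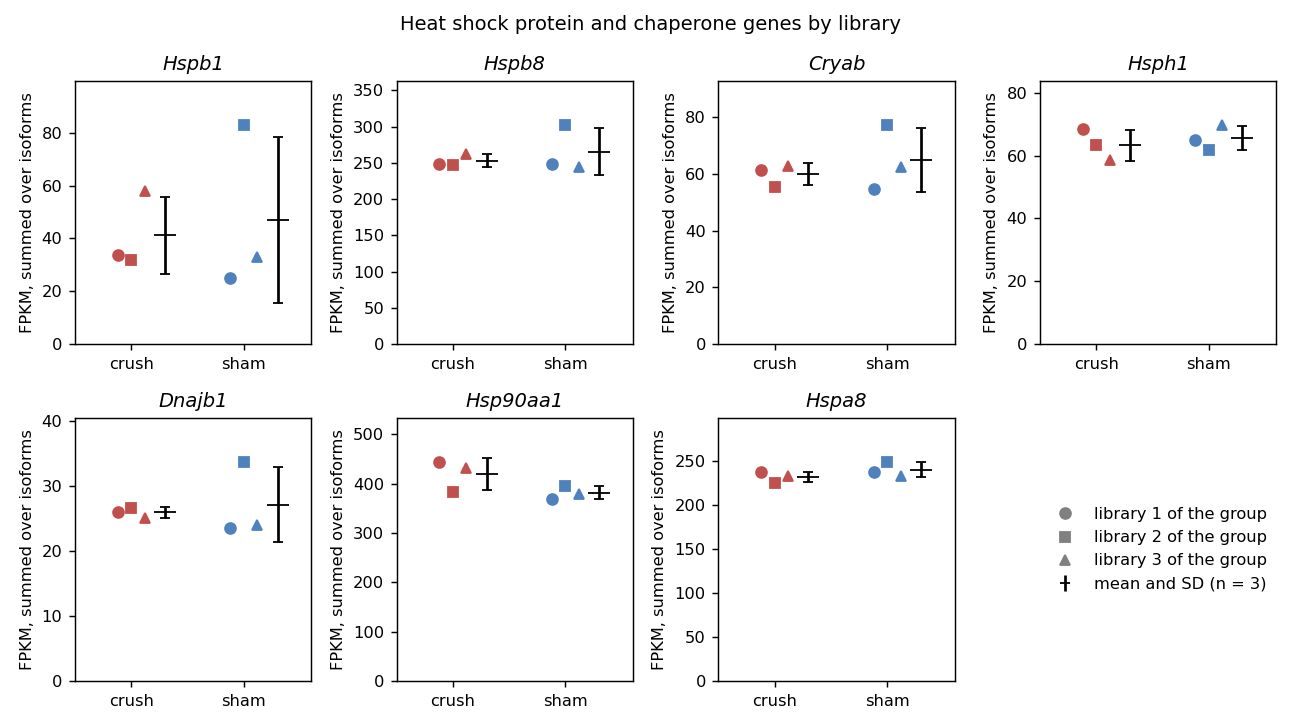
FPKM of each gene, summed over its isoforms, in the crush libraries (left, red) and the sham libraries (right, blue), with the mean and SD of each group beside the points; each panel has its own axis from 0. The groups overlap in all 7 panels, and sham 2, the blue square, is the highest library for Hspb1, Hspb8, Cryab, Dnajb1 and Hspa8.

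Hspb1 (HSP27), which binds damaged proteins and actin filaments, had 33.9, 31.7 and 57.9 FPKM in crush 1 to 3, against 24.9, 82.9 and 32.8 FPKM in sham 1 to 3. Crush 3 and sham 2 were high in their groups, and the other 4 libraries lay between 24.9 and 33.9 FPKM. The authors' deposited intervals for crush 3 (44.4 to 71.4 FPKM) and sham 2 (64.1 to 102 FPKM) lay above those of the other 4, whose upper ends were 31.0 to 42.1 FPKM. The means were 41.2 ± 14.5 FPKM in crush and 46.9 ± 31.5 FPKM in sham (SD, n = 3 each), a log2 change of -0.04 with a 95% interval of -1.11 to 1.02 and a limma adjusted p of 0.977. Log2 changes here are crush minus sham on the log2(FPKM + 1) scale. Leaving out sham 2 turned the change to 0.46, with an interval of -0.14 to 1.06 and an adjusted p of 0.310, and even then crush 2 lay below sham 3. The gene lies on chromosome 5 from 136363263 to 136365433 in build mm9, which all coordinates below use, and 1 isoform of 3 exons carried its whole value.

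The excess of sham 2 in Hspb1, 1.50 on the log2 scale over sham 1 and sham 3, was at the 99.9th percentile of all genes tested, and that of crush 3 over crush 1 and crush 2, 0.80, was at the 99.7th. The same libraries had the highest summed level of the neuron marker list, 7848 FPKM in crush 3 and 7919 FPKM in sham 2. The other 4 had 5923 to 6832 FPKM. This sum is dominated by abundant genes such as Uchl1, which was also highest in these libraries. Not every listed marker was: Syt1 was lowest in sham 2 (23.8 FPKM) and next lowest in crush 3 (27.1 FPKM). In the other 4 libraries Syt1 was at 31.6 to 35.3 FPKM. The summed satellite glia markers, chiefly the lipid carrier Apoe, were highest in sham 2 at 2867 FPKM, with 1965 to 2280 FPKM in the other 5 libraries. The part of these differences in the Hspb1 values was not tested. In bulk libraries, more cells of a type and more RNA per cell cannot be told apart.

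Hspb8, which works with the co-chaperone Bag3 in clearing misfolded proteins, had 249, 246 and 263 FPKM in the crush libraries, against 249, 302 and 244 FPKM in the sham libraries. Only sham 2 stood out, and the other 5 libraries fell within 244 to 263 FPKM. The means were 252.7 ± 8.93 FPKM in crush and 265 ± 32.3 FPKM in sham, a log2 change of -0.06 (interval -0.31 to 0.18, adjusted p = 0.814), or 0.03 without sham 2 (adjusted p = 0.763). Its partner Bag3 was at 121 ± 2.37 FPKM in crush and 122 ± 8.32 FPKM in sham, a log2 change of -0.01 (0.05 without sham 2); it was added because it is Hspb8's partner. Hspb8 lies on chromosome 5 from 116840709 to 116873889, minus strand.

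Cryab (alpha-B crystallin), a small heat shock protein of lens, muscle and glia, had 61.5, 55.5 and 62.8 FPKM in crush, against 54.8, 77.3 and 62.6 FPKM in sham. Sham 2 was again the highest library and sham 1 the lowest, so the sham range enclosed every crush value. The log2 change was -0.10 (interval -0.41 to 0.21, adjusted p = 0.764), or 0.03 without sham 2 (adjusted p = 0.850). On chromosome 9, from 50559187 to 50564765, Cryab shares 42.7% of its exon bases with its neighbour Hspb2 on the opposite strand, and strand was not stated to be kept. Hspb2 was at 0.530 to 1.08 FPKM in all 6 libraries, under the filter of a mean of 1 FPKM, so its values were small beside those of Cryab.

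Hspa8 (HSC70), the constitutive HSP70 protein that also uncoats clathrin vesicles, was the steadiest of the 7, at 237, 226 and 234 FPKM in crush and 237, 249 and 233 FPKM in sham. Its log2 change was -0.05, with an interval of -0.22 to 0.12 (adjusted p = 0.797), or -0.02 without sham 2. Hsph1 (HSP105), the nucleotide exchange partner, had 68.3, 63.2 and 58.4 FPKM in crush, against 65.0, 61.9 and 69.7 FPKM in sham. The libraries of Hsph1 were interleaved, and it was the only gene of the 7 that was lower in sham 2 than in the other sham libraries; its log2 change was -0.05 (interval -0.25 to 0.15, adjusted p = 0.817), or -0.09 without sham 2. Hspa8 lies on chromosome 9 from 40608980 to 40614272, and Hsph1 on chromosome 5 from 150416788 to 150440025. Reads of Hspa8 and of Hsp90aa1 may also match processed copies of these genes, and how the authors assigned such reads is not given in the sources used here.

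Dnajb1 (HSP40), the J-domain protein that delivers clients to HSP70, had 26.0, 26.6 and 25.0 FPKM in crush, against 23.4, 33.7 and 24.0 FPKM in sham. The crush libraries fell between sham 3 and sham 2. The log2 change was -0.04 (interval -0.37 to 0.29, adjusted p = 0.914). Without sham 2 all 3 crush libraries were above both remaining sham libraries, with a log2 change of 0.12 (interval -0.01 to 0.25), which did not pass (adjusted p = 0.213). It lies on chromosome 8 from 86132119 to 86135856.

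Hsp90aa1, the stress-inducible HSP90 protein, was the only gene of the 7 with a higher mean in crush: 445, 384 and 431 FPKM in crush, against 369, 396 and 379 FPKM in sham. Crush 1 and crush 3 lay above every sham library, and crush 2 lay between sham 3 and sham 2. The means were 419.9 ± 31.9 FPKM in crush and 381 ± 13.5 FPKM in sham, a ratio of 1.10 and a log2 change of 0.14, with an interval of -0.08 to 0.35 and an adjusted p of 0.504. Without sham 2 the groups no longer overlapped, and the change was 0.16 (adjusted p = 0.260). The authors' table marks the estimate of all 8 of its isoforms as failed in crush 2 and in sham 3, so these 2 values may be less sure than the others. The gene lies on chromosome 12 from 111928279 to 111934681, minus strand.

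In the fit over all 12289 genes with a mean of at least 1 FPKM, limma called 464 genes (3.78%), 293 higher and 171 lower in crush, and 0 of the 7 chaperones; 0 of the 7 had an unadjusted p under 0.05, as did 2158 of all genes. The groups did not overlap for 26.3% of all genes and for 0 of the 7. Without sham 2 the fit called 9.55% of genes and again 0 of the 7 (0 with an unadjusted p under 0.05), while the groups did not overlap for 45.6% of genes and for 2 of the 7, Dnajb1 and Hsp90aa1. With all libraries, the intervals of the 6 genes other than Hspb1 lay within -0.41 to 0.35 on the log2 scale. That of Hspb1 ran from -1.11 to 1.02, so its direction was not settled by these libraries.

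**Figure D2:**
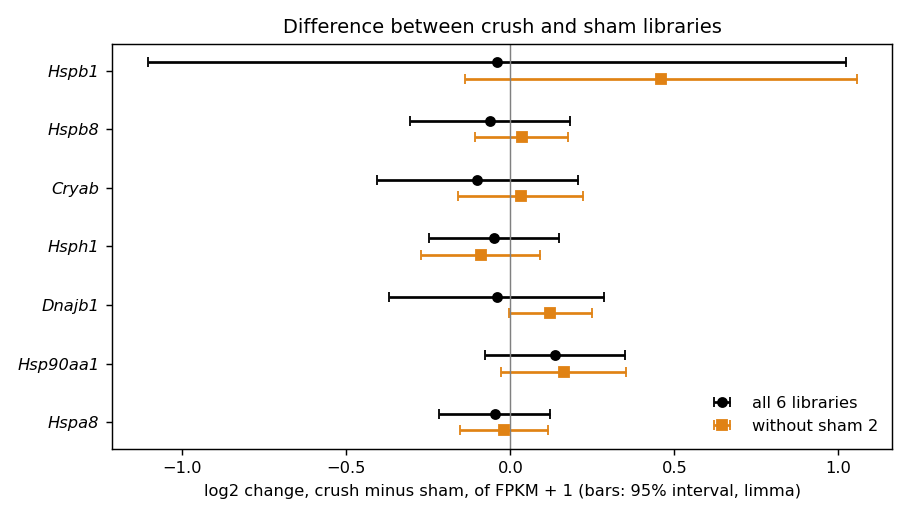
Log2 change of each gene, crush minus sham, of FPKM + 1, with the 95% interval of the limma fit, for all 6 libraries (black circles) and without sham 2 (orange squares). Every interval includes 0, and the Hspb1 estimate moves from -0.04 with all libraries to 0.46 without sham 2.

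The 28 isoforms comprise 9 with a reference identifier and 19 that the authors assembled from the reads, which bear the gene name and a j-number; 21 passed the filter of a mean of 1 FPKM and were tested. Limma called 0 of the 21, with 0 at an unadjusted p under 0.05, and 15 of 24485 isoforms in all (0.0613%), with 2233 at an unadjusted p under 0.05. The groups did not overlap for 2 of the 21 (9.52%), against 17% of all isoforms tested. One was Hsp90aa1_j7, a piece of 943 bases in 2 exons at the 3′ end, with 324, 274 and 307 FPKM in crush and 261, 271 and 271 FPKM in sham (log2 change 0.17, adjusted p = 0.669). The other was the Cryab isoform of 2683 bases, with 1.95, 1.73 and 1.82 FPKM in crush and 2.22, 2.47 and 2.26 FPKM in sham (log2 change -0.23, adjusted p = 0.618). The first was higher and the second lower in crush, and neither passed the test. For Hsp90aa1_j7 the closest values of the groups, in crush 2 and sham 3, are those with a failed status. Without sham 2, limma again called 0 of the 21, against 0.184% of all isoforms; 1 had an unadjusted p under 0.05, Hsp90aa1_j3 at 0.39 (adjusted p = 0.365).

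Sham 2 differed from the other 5 libraries in how its Hspb8 value was split. Hspb8_j2 had 76.0, 70.4 and 84.0 FPKM in crush and 63.5, 155 and 74.1 FPKM in sham. Hspb8_j3 had 81.2, 88.2 and 85.3 FPKM in crush and 94.7, 42.4 and 83.3 FPKM in sham. The isoforms share their second exon and nearly all of the third and differ in a short first exon, from 116865768 to 116865869 in Hspb8_j2 and from 116865998 to 116866060 in Hspb8_j3. Their sum was 157 to 169 FPKM in crush, against 158, 198 and 157 FPKM in sham 1 to 3, so in sham 2 one stood at a high and the other at a low while the sum moved less than either. Hspb8_j2 held 30.4 ± 1.70% of the gene in crush and 35.8 ± 13.8% in sham (2-sided exact permutation test p = 0.9, where the smallest possible p is 0.1). The difference of -5.40 percentage points rested on sham 2: without it the difference was 2.43 points, and with each other library left out in turn it was -10.5 (without sham 1) to -4.50 points.

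Cryab_j2 held 88.7 ± 2.77% of Cryab in crush and 87.7 ± 5.62% in sham, and the smaller Cryab_j1, which skips part of the second Cryab_j2 exon, ranged from 0.394 FPKM in sham 1 to 10.0 FPKM in sham 2. Hsp90aa1_j7 held 71.8 ± 0.934% in crush and 70.2 ± 1.63% in sham (exact permutation p = 0.3), the smallest p of the 6 genes with more than 1 isoform tested. In the same gene Hsp90aa1_j5 was at 5.20, 0.0530 and 15.4 FPKM in crush and 4.75, 17.0 and 0.362 FPKM in sham, and the 2 lowest values are those with a failed status. The main isoform of Hspa8 held 95.8 ± 2.30% in crush and 97.1 ± 1.90% in sham, that of Hsph1 64.2 ± 2.28% in crush and 65.4 ± 5.70% in sham, and that of Dnajb1, of 2169 bases, 73.7 ± 1.02% in crush and 74.2 ± 9.57% in sham. The limma diffSplice test of unequal change among isoforms called 0 of these 6 genes (adjusted p = 1 in each, 0 with an unadjusted p under 0.05), against 30 of 6746 genes (0.445%), with 363 at an unadjusted p under 0.05. Without sham 2 it again called 0 of the 6 (0 with an unadjusted p under 0.05), against 1.04% of all genes tested. Leaving out 1 library at a time moved the share difference, crush minus sham, within -1.36 to 4.11 percentage points for Cryab, -3.69 to 1.91 for Hsph1 and -3.34 to 5.01 for Dnajb1, whose direction therefore depended on single libraries. It stayed within 0.704 to 2.27 points for Hsp90aa1 and -2.36 to -0.0796 points for Hspa8.

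**Figure D3:**
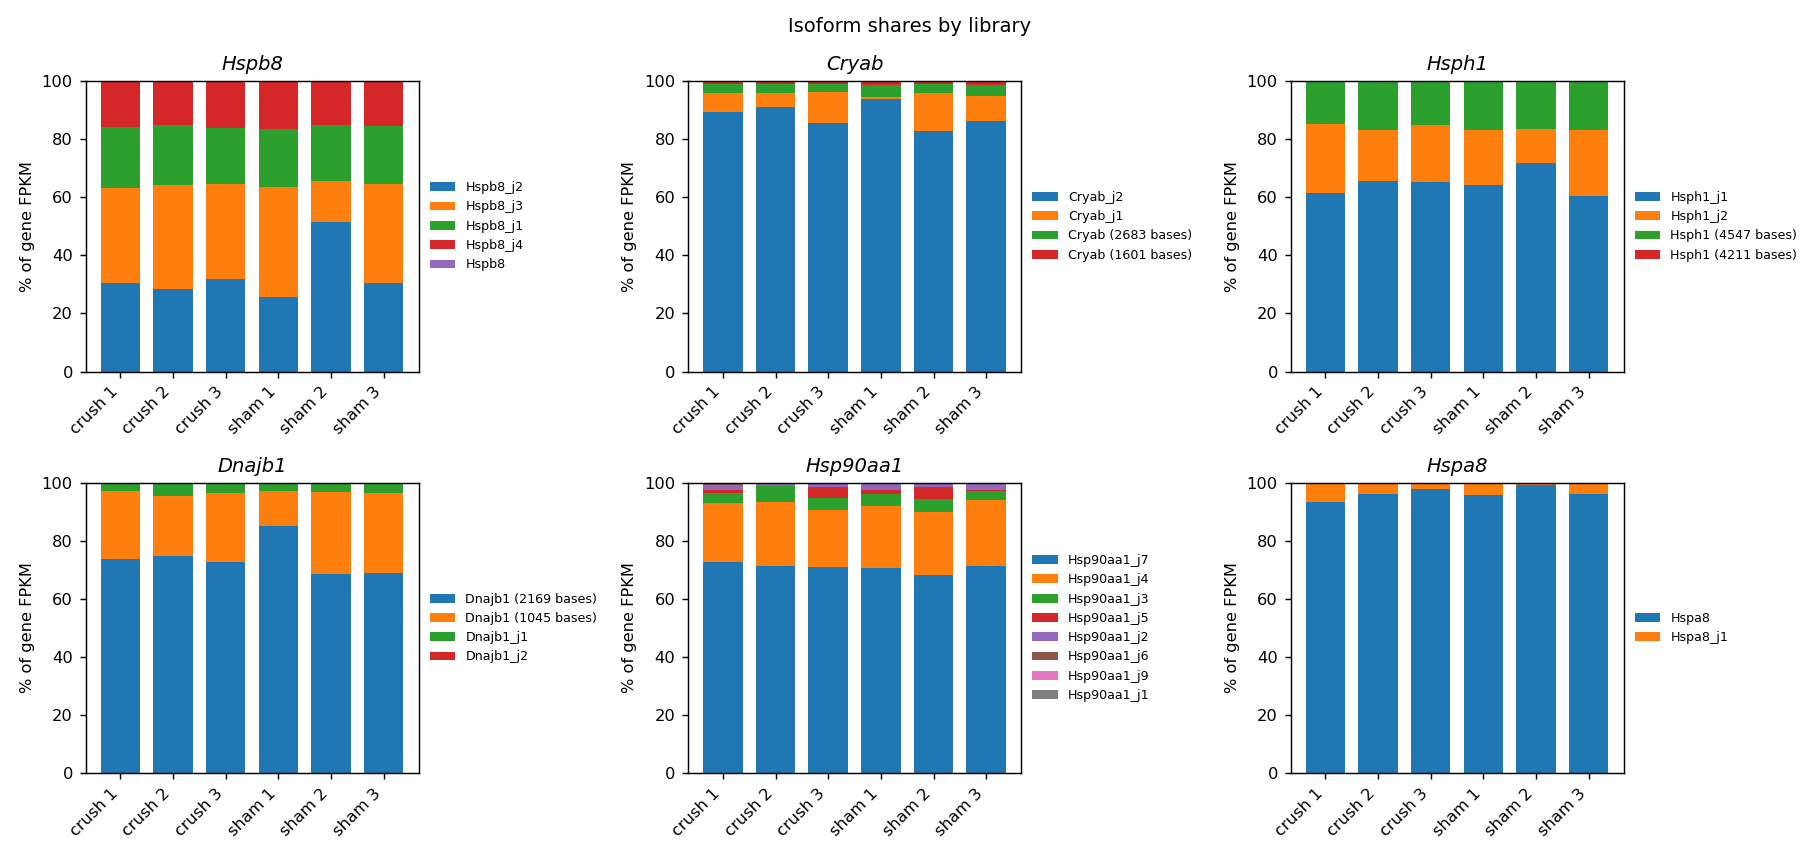
Share of each gene's FPKM held by each isoform, in percent, for crush 1 to 3 (left) and sham 1 to 3 (right) of the 6 genes with several isoforms; isoforms with the same name are told apart by length. In sham 2 Hspb8_j2 holds 51.4% of its gene, and in sham 1 the main Dnajb1 isoform holds 85.3%, each the highest of the 6 libraries.

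The authors' deposited comparison uses 1 pooled FPKM per group and gives no spread between libraries. It tested 11 of the 28 isoforms, since those of Hspb8, Hsph1 and Hsp90aa1 have a failed test, and marked 3 of the 11 as significant, against 15.1% of the 25544 isoforms it tested. For Hspb1 the authors' deposited table gives a pooled value of 114.9 FPKM in crush and 57.4 FPKM in sham, a log2 change of 1.003, with a q-value written as 0. The pooled crush value lies above all 3 crush libraries, which were 33.9, 31.7 and 57.9 FPKM. For Cryab_j1 the authors' deposited table gives 13.0 FPKM in crush and 6.04 FPKM in sham (log2 change 1.10, q = 5.33e-06), while the libraries held 4.03, 2.78 and 6.57 FPKM in crush and 0.394, 10.0 and 5.51 FPKM in sham. For Hspa8_j1 the authors' deposited table gives 23.9 FPKM in crush and 18.9 FPKM in sham (log2 change 0.34, q = 0.0132), while the libraries held 15.7, 8.71 and 4.78 FPKM in crush and 9.84, 1.73 and 8.81 FPKM in sham.

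In all 3 the pooled crush value was above every crush library. The ratios of the plain library means with all 6 libraries were below 1 for Hspb1 and Cryab_j1, with log2 ratios of -0.19 and -0.25, opposite to the authors' deposited table. The direction depended on the scale and on sham 2: on the log2(FPKM + 1) scale Cryab_j1 was at 0.17 with all libraries, and without sham 2 Hspb1 was at 0.46 and Cryab_j1 at 0.80, none of which passed the test. The authors' deposited table has a pooled crush value above every crush library in 9 of the 11 isoforms it tested, against 28.4% of all 25544, and a pooled sham value above every sham library in 4 of the 11, against 22.5%. Of the 3858 isoforms marked in the authors' deposited table, 9.67% had plain library means in the opposite direction. A ratio of library means could be formed for 3567 of them, and the rest were counted as not opposite. How the pooled estimates were made from the libraries is not given in the sources used here.

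**Figure D4:**
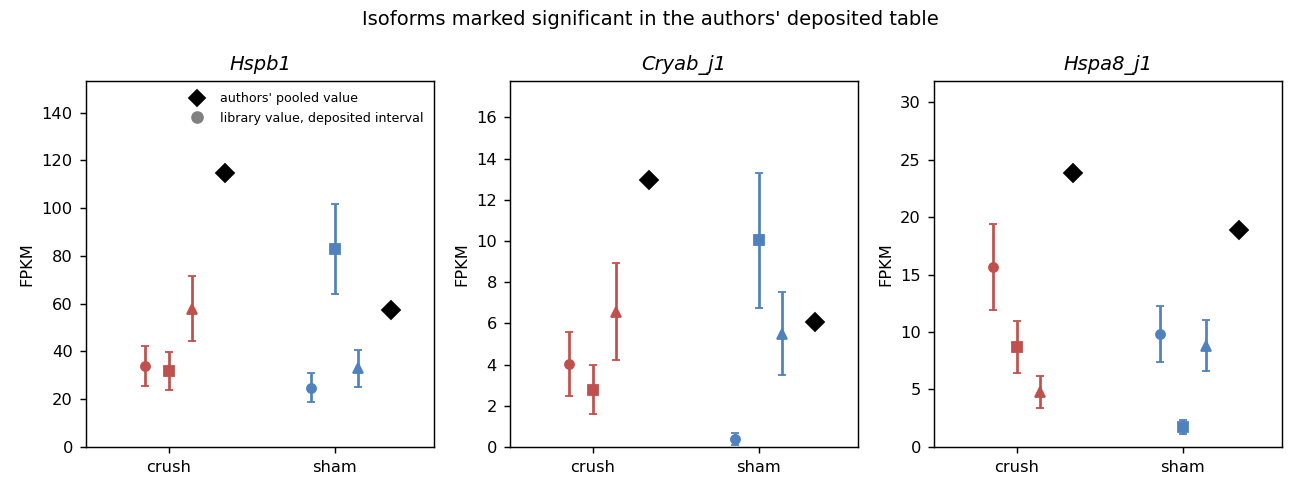
FPKM of the 3 isoforms marked significant in the authors' deposited table, for crush (left, red) and sham (right, blue) libraries with their deposited intervals, and the authors' pooled value of each group (black diamonds). The library points of the groups overlap in each panel, and the pooled crush value lies above all 3 crush libraries, for Hspb1 at 114.9 FPKM.

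The other chaperone genes were read from 7 lists of 83 genes, of which 74 were tested. Limma called 0 of the 74, against 3.78% of all 12289 genes tested. An unadjusted p under 0.05 was found for 6 of the 74, against 2158 of the 12289. The groups did not overlap for 6 of the 74 (8.11%), against 26.3% of all genes. Of the 74, 49 had a negative log2 change, with a median of -0.04, against 54.1% negative and a median of -0.02 over all genes tested. These signs depended in part on sham 2. Without it, 1 of 2 small heat shock genes, 5 of 10 HSP70 and HSP110 genes and 1 of 3 HSP90 genes had a positive change. So did 7 of 26 J-domain genes, 9 of 19 co-chaperones, 7 of 10 chaperonins and 3 of 4 heat shock factor genes. The co-chaperone Fkbp4, a prolyl isomerase that binds HSP90, came nearest to passing, with 109, 104 and 108 FPKM in crush, against 129, 154 and 134 FPKM in sham (log2 change -0.38, adjusted p = 0.0686). All crush libraries of Fkbp4 were below all sham libraries. The same held for Stip1, which links HSP70 to HSP90, the mitochondrial HSP90 protein Trap1 and the J-domain proteins Dnajc12 and Dnajc21. Stip1 had 74.0, 75.0 and 75.8 FPKM in crush and 82.1, 90.9 and 81.2 FPKM in sham (log2 change -0.17, adjusted p = 0.264). Like Dnajb5 and Dnajc12, it was named after its values were seen.

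Among the genes listed as other small heat shock proteins, Hspb6 had 4.72, 4.62 and 5.21 FPKM in crush and 7.25, 5.02 and 8.48 FPKM in sham (log2 change -0.41, adjusted p = 0.257). Hspb11, whose place in the family was not examined, averaged 12.7 ± 0.652 FPKM in crush and 12.4 ± 2.10 FPKM in sham. Of 10 other HSP70 and HSP110 genes, 5 had a negative change; Hspa5, the HSP70 protein of the endoplasmic reticulum, averaged 90.6 ± 1.23 FPKM in crush and 92.5 ± 13.0 FPKM in sham, and Hspa2, an HSP70 protein abundant in testis, 11.8 ± 1.07 FPKM in crush and 10.5 ± 1.35 FPKM in sham. The inducible genes Hspa1a and Hspa1b were also listed, but they were not among the gene names of the expression table and could not be tested. Trap1 was at 24.9 ± 0.808 FPKM in crush and 28.8 ± 2.12 FPKM in sham (log2 change -0.20, adjusted p = 0.216), and Hsp90ab1, the constitutive partner of Hsp90aa1, at 816 ± 7.80 FPKM in crush and 819 ± 49.8 FPKM in sham (log2 change -0.00, interval -0.22 to 0.21). Hsp90ab1 was above Hsp90aa1 in each library.

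Of the 26 other J-domain proteins, 18 had a negative change, with a median of -0.09. Dnajc21 was at 7.74 ± 0.281 FPKM in crush and 9.29 ± 0.671 FPKM in sham (log2 change -0.23, adjusted p = 0.161), the most abundant, Dnajc7, was at 73.7 ± 7.39 FPKM in crush and 67.6 ± 6.14 FPKM in sham, and in Dnajb5 all crush libraries were above all sham libraries (log2 change 0.23, adjusted p = 0.217). The chaperonins, ring-shaped folding complexes, had 6 of 10 negative with a median of -0.00, and their most abundant gene, Cct8, was at 145 ± 6.43 FPKM in crush and 136 ± 3.64 FPKM in sham, with Cct4 at 84.4 ± 3.12 FPKM in crush and 77.5 ± 6.66 FPKM in sham. The heat shock factor genes had 2 of 4 negative. Hsf2 was at 13.9 ± 0.568 FPKM in crush and 12.8 ± 0.847 FPKM in sham, and Hsbp1, which binds Hsf1 and limits it, at 73.1 ± 5.80 FPKM in crush and 77.2 ± 16.8 FPKM in sham. Hsf1 itself, named after its values were seen, was at 2.56 ± 0.0731 FPKM in crush and 2.49 ± 0.0567 FPKM in sham.

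Without sham 2, 5 of the 74 genes passed the limma test: the phosducin-like Pdcl3 was higher in crush (log2 change 0.39, adjusted p = 0.0171), and Hspb6 (-0.60, adjusted p = 0.00887), Fkbp4 (-0.30, adjusted p = 0.0190), Dnajc27 (-0.44, adjusted p = 0.0285) and the endoplasmic reticulum protein Dnajb9 (-0.27, adjusted p = 0.0417) were lower. That is 5 of 74 where 9.55% of all genes passed. Sham 2 was above the mean of the other sham libraries, on the log2 scale, in 46 of the 74 genes, with a median difference of 0.13, and in 6 of the 7 described first, with a median of 0.29, against a median of 0.01 over all genes.

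**Figure D5:**
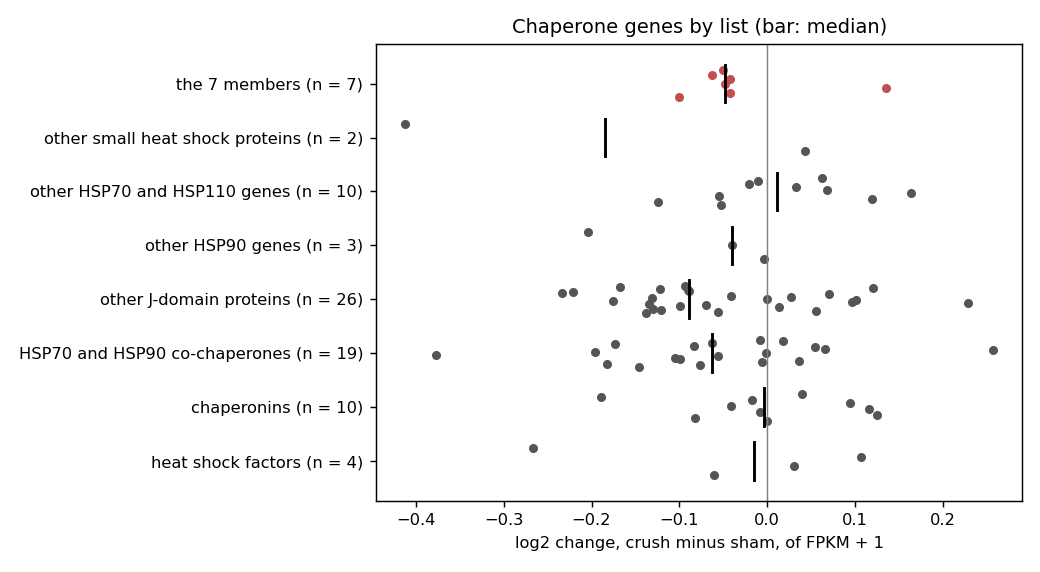
Log2 change, crush minus sham, of FPKM + 1 for the 7 genes (top row, red) and for the tested genes of each chaperone list (grey), with the median of each row as a black bar. Apart from Hspb6 at -0.41 and Fkbp4 at -0.38, the points lie between -0.27 and 0.26, and no gene shown passed the test with all 6 libraries.

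Macrophage markers were higher in crush. Of 8 macrophage markers tested, 7 were higher in crush, with a summed level of 141 to 156 FPKM in the crush libraries, against 64.9 to 77.7 FPKM in the sham libraries; the most abundant, Lyz2, was at 46.9 ± 3.20 FPKM in crush and 25.6 ± 2.01 FPKM in sham (log2 change 0.85, adjusted p = 0.00717). Of the 42 markers tested in 7 other lists (neurons, satellite glia, Schwann cells, fibroblasts, endothelium, muscle and red blood cells), limma called 0, with 12 at an unadjusted p under 0.05. Over all 12289 genes tested, limma called 3.78% with all libraries, and 2158 had an unadjusted p under 0.05. Without sham 2, when 9.55% of all genes passed, it called 6 of the 42, 5 higher and 1 lower in crush. Among them Stmn2 of neurons and Dcn and Lum of fibroblasts were higher and Isl1 of neurons was lower; Stmn2, Lum and Isl1 were named after their values were seen. With all libraries, 6 of 10 neuron markers had a negative log2 change, as did 2 of 8 satellite glia, 1 of 9 Schwann cell, 0 of 6 fibroblast, 1 of 5 endothelial, 1 of 2 muscle and 0 of 2 red blood cell markers. The most abundant neuron marker, Tubb3, was at 2198 ± 217 FPKM in crush and 1822 ± 252 FPKM in sham, and the most abundant satellite glia marker, Apoe, was at 1545 ± 98.9 FPKM in crush and 1784 ± 469 FPKM in sham. Thus RNA of neurons and of glia was abundant in both groups. The Schwann cell marker Pmp22 was at 430 ± 15.1 FPKM in crush and 389 ± 30.2 FPKM in sham, and the fibroblast markers summed to 178 to 190 FPKM in crush, against 116 to 155 FPKM in sham, with Dcn at 95.6 ± 3.36 FPKM in crush and 73.2 ± 12.9 FPKM in sham. Flt1 of endothelium and Acta2 of muscle stayed under 5 FPKM in all libraries, while the red blood cell gene Hba-a2 was at 85.0, 184 and 194 FPKM in crush and 93.7, 146 and 145 FPKM in sham. The part of these cells in the chaperone levels was not tested.

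Hspb1, Dnajb1 and Cryab had the widest range over the 6 libraries, 1.70, 0.51 and 0.49 on the log2 scale. Among 5634 other genes of at least 10 FPKM, those nearest to the Hspb1 pattern were Rpl27a, a protein of the large ribosomal subunit, and Gm13611, with root mean square differences of 0.18 and 0.21 on the log2 scale after centring. Rpl27a had 10.1, 10.3 and 14.6 FPKM in crush and 9.18, 24.1 and 9.95 FPKM in sham, highest in sham 2 and next in crush 3, as the choice by pattern entails. Nearest to Dnajb1 were the interferon regulatory factor Irf3 and the deubiquitinase Josd2, both within 0.04, and nearest to Cryab were Vps45, a protein of vesicle fusion, at 0.02 and the LIM-domain protein Lmo1 at 0.03. Irf3, for example, was at 16.2 FPKM in sham 2 and 11.2 to 12.3 FPKM in the other 5 libraries, a shape that the choice fixes.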

How the data were processed

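Per the submitters' processing notes, reads were processed with TopHat 1.3.2, Cufflinks 1.1.0 and Cuffdiff 1.2.1 on genome build mm9. The authors deposited FPKM per isoform and library with an interval and a status, and, from pooled group estimates, each isoform's log2 fold change with its p-value and q-value; the exon positions come from the authors' exon file. FPKM was summed over isoforms of a gene name. Features averaging 1 FPKM or more over the 6 libraries were tested in limma 3.58.1 (R 4.3.3) on the log2(FPKM + 1) scale (trend, 2-sided, Benjamini-Hochberg over all features tested, threshold 0.05), isoform use with diffSplice, and leading-isoform shares with an exact permutation test. The log2 scale with a pseudocount of 1 understates the change of low genes. The procedures were tested on simulated data. Depth is unknown, so no counting interval was computed. No batch of surgery or extraction is named in the labels; the libraries were mixed over 3 lanes.

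The members and gene lists were chosen with earlier results of these data known. Named were all members, from each chaperone list the gene of smallest adjusted p and the most abundant, the most abundant marker of each list, Atf3, and, for the 3 members of widest range, the 2 genes of most similar pattern; exceptions are stated. Promoter sequences are from RefSeq (GRCm38.p6); tables and figures were made with pandas 2.3.3, numpy 2.4.6 and matplotlib 3.10.9 under Python 3.11.15. Alternatives were another pseudocount (0.1), no filter or 5 FPKM, upper-quartile and quantile scaling, each library left out, replicate number as a block, reference isoforms only, only isoforms with status OK, and sample weights.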

Additional observations from a re-analysis of the deposited data

How the results depend on the processing

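In no alternative that was run did any of the 7 genes, their isoforms or their isoform use pass the test. Hspb8 and Hsp90aa1 gave no value with reference isoforms only, nor Hsp90aa1 with status OK only, and isoforms and their use were not run with reference isoforms only. Over the remaining 102 combinations of gene and alternative, 88 kept the direction of the change and 14 reversed it; Hsp90aa1 (0.09 to 0.20, 13 alternatives) and Hspa8 (-0.07 to -0.00, 15 alternatives) did not reverse in those run. Hspb1 became 0.000323 with upper-quartile scaling, 0.00939 with quantile scaling and 0.27 with sample weights (adjusted p 0.310 to 0.9996 over all alternatives). With quantile scaling Hspb8 became 0.0133 and Hsph1 0.00199, and with sample weights Cryab became 0.0241 and Dnajb1 0.107. With a library left out, Hspb1 ranged from -0.39 to 0.46, reversing without crush 1 (0.07), crush 2 (0.11) or sham 2 (0.46); Hsph1 ranged from -0.11 to 0.00504 (without crush 3); Hspb8 from -0.12, Cryab from -0.21 and Dnajb1 from -0.13 to 0.0347, 0.0308 and 0.12 in that order, each highest without sham 2. Adjusted p of the 6 others lay between 0.213 and 0.999.

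The counts over all genes moved more. The 464 genes called became 295 at 5 FPKM, 67 with reference isoforms only, 1429 with sample weights and 53 (without crush 1) to 1174 (without sham 2) with a library left out. The split of 293 higher and 171 lower became 607 and 567 without sham 2, 45 and 5 with the replicate block and 348 and 131 with upper-quartile scaling. The 15 isoforms became 7 with no filter, 30 with upper-quartile and 42 with quantile scaling, 34 with status OK only, 1355 with sample weights and 0 to 45 with a library left out. The 30 genes of unequal isoform use became 103 with no filter, 4 at 5 FPKM, 565 with sample weights and 9 to 70 with a library left out. Deviations of same-numbered libraries from their group means correlated at r = 0.372, -0.309 and -0.486 for numbers 1 to 3. Within a group these deviations are tied to each other, and sham 2 stood apart. The values therefore cannot tell whether same-numbered libraries were paired. With the replicate block 50 genes, 0 isoforms and 5 genes of unequal isoform use were called, and 0 of the 7. The causes were not tested. Depth is unknown, so what it limits cannot be given.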
